A study of Arabidopsis thaliana with 12 samples.

Results

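The levels of 52 nuclear genes for the photosynthetic machinery of Arabidopsis thaliana were read in mRNA sequencing data from whole seedlings. The genes were taken by gene identifier from a fixed list, and all 52 were found among the 33602 annotated genes that the deposited tables share. The list holds 5 Rubisco genes (4 small subunit genes, RBCS1A, RBCS1B, RBCS2B and RBCS3B, and the Rubisco activase gene RCA), 14 genes for the antenna of photosystem II (LHCB), 6 for the antenna of photosystem I (LHCA), 12 for photosystem I subunits (PSA), 10 for photosystem II subunits (PSB), and 5 for electron transport and the ATP synthase (PETC, PETE1, PETE2, ATPC1 and ATPD). No measured value enters the rule of choice, but the list was drawn up with earlier results of these data known.

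Seedlings in the Col-0 accession were collected at 10 days, whole and untreated, from upright plates of Murashige and Skoog medium, and each line had 3 libraries, each from a pool of plants. Besides wild type (WT, Col-0), the lines were doa10a/b RNAi 4-2, amiNAA10 and naa20. The first is a T-DNA mutant of AtDOA10A, an endoplasmic reticulum E3 ubiquitin ligase gene, that also carries an RNAi construct against its homologue AtDOA10B, and it is 1 transgenic line. The second expresses an artificial microRNA against NAA10, the catalytic subunit of the N-terminal acetyltransferase NATA, and is a knockdown. The third is labelled as a mutant of NAA20, the catalytic subunit of NATB. In whole seedlings, fewer cells of a type and less RNA per cell cannot be told apart.

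Photosystem II splits water and photosystem I reduces ferredoxin, and the cytochrome b6f complex and the mobile carrier plastocyanin pass electrons between them. Chlorophyll-binding LHCB and LHCA proteins harvest light for the photosystems, the proton gradient drives the chloroplast ATP synthase, and Rubisco fixes carbon dioxide in the stroma. Core subunits and the large subunit of Rubisco are encoded in the plastid genome, whereas the genes described here lie in the nucleus, are translated in the cytosol and reach the chloroplast by import. They are among the most abundant mRNAs of green tissue, respond to light, and are positively regulated by GOLDEN2-LIKE (GLK) transcription factors.

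The deposited value of a gene is a mean over the 3 libraries of a line, in normalized read counts (reads divided by a size factor of the library). The means of these annotated genes summed to 20335644 in Col-0, 20596542 in the RNAi line, 21622485 in amiNAA10 and 21636449 in naa20. Line differences are given as log2 ratios of the means after adding 1, over genes with an average of at least 10, and 1.5-fold (0.58 on the log2 scale) is the size past which a gene is counted as lower or higher. With 1 mean per line such a count carries no p-value. The amiNAA10 and naa20 values come from tables normalized separately from the Col-0 values used here, so every log2 ratio across tables was centred on the median of all genes, which moved the ratios by 0.21 for amiNAA10 over Col-0, 0.10 for naa20 over Col-0 and 0.10 for amiNAA10 over naa20. By the study's data statement the Col-0 libraries analysed here belong to the RNAi line, and the acetyltransferase lines have Col-0 controls of their own that were not used here. A difference between either of these lines and Col-0 therefore cannot be told apart from a difference between experiments.

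The targeted genes were read first. AtDOA10A had a mean of 2272 in Col-0 and 841 in the RNAi line, with library values of 2157 to 2385 and 789 to 943, and its log2 ratio was -1.43. For AtDOA10B, against which the RNAi is directed, the same line had 511 and Col-0 282 (log2 ratio 0.86). By RT-qPCR, with primers upstream and downstream of the RNAi target, the paper reports reduced AtDOA10B mRNA in this line. That is a different measure from a count over the whole gene. NAA10 had 885 in Col-0 and 123 in amiNAA10 (log2 ratio -3.04). NAA20 was not lower in the libraries labelled naa20 but higher, at 680 against 263 in Col-0 (log2 ratio 1.27), so that group is called "the group labelled naa20" here. These counts cover the whole gene and do not show whether a transcript is functional.

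Library values could be recovered for part of the genes, because the means are printed with enough digits to identify the whole read counts of the 3 libraries behind them. This gave values for 34 of the 52 genes in Col-0, for 32 in the RNAi line and for 1, LHCB4.3, in either acetyltransferase line. The libraries are called A, B and C in order of size factor and are not tied to the numbers in the sample titles. The genes moved together between the Col-0 libraries: library B was the lowest for 33 of 34 genes and library C the highest for 30, with median values of 89.2% and 109% of the gene's own mean. In the RNAi line the spread was smaller, with a median coefficient of variation of 3.49% against 10.4% in Col-0. The SE of a log2 ratio between 2 lines of 3 libraries with this spread had a median of 0.093 and ranged from 0.048 to 0.22 over 31 genes. Counting error alone was below 0.042 for every one of the 52 genes.

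The RNAi line resembled Col-0 in these genes. None of the 52 was past 1.5-fold in either direction, where 2.17% of all 20027 genes were lower and 1.35% higher, and the median log2 ratio was -0.0068 with a range from -0.29 to 0.19. Rubisco had a median of -0.030, the photosystem II antenna -0.020, the photosystem I antenna -0.0050, photosystem I -0.0044, photosystem II -0.0055, and the electron transport and ATP synthase genes 0.045. In limma fitted to the recovered libraries of 19948 genes, 0 of the 31 genes with values in both lines had an adjusted p under 0.05, and 2 (PSAF and PETE1) had an unadjusted p under 0.05. Over all genes the same fit called 1.2% lower and 1.14% higher.

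PSAF (AT1G31330), which encodes a photosystem I subunit at the plastocyanin docking side, was the gene that differed most. Its Col-0 libraries held 35107, 30008 and 40690 normalized reads and its RNAi libraries 29180, 28867 and 28468. All RNAi libraries lay below all Col-0 libraries, and the log2 ratio of the means was -0.29. The limma estimate was -0.28 with an SE of 0.10 and an adjusted p of 0.19. Without Col-0 library B, which held its lowest Col-0 value, the adjusted p was 0.0081. With any other library left out instead, it lay between 0.30 and 0.47. PETE1, the less abundant of the plastocyanin genes by count, had 3846, 3547 and 4177 in Col-0 and 4191, 4550 and 4438 in the RNAi line. Its groups did not overlap either, with a log2 ratio of 0.19 (adjusted p = 0.19 in limma). PSAH1, for a subunit of photosystem I, and LHCA5, a minor antenna gene, were the other 2 genes whose RNAi libraries all lay above those of Col-0 (log2 ratios of 0.18 and 0.12). Such a lack of overlap was seen in 10.7% of all 19948 genes for lower and 11.2% for higher values, so 1 lower and 3 higher among 31 were near the share in the genes at large.

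**Figure D1:**
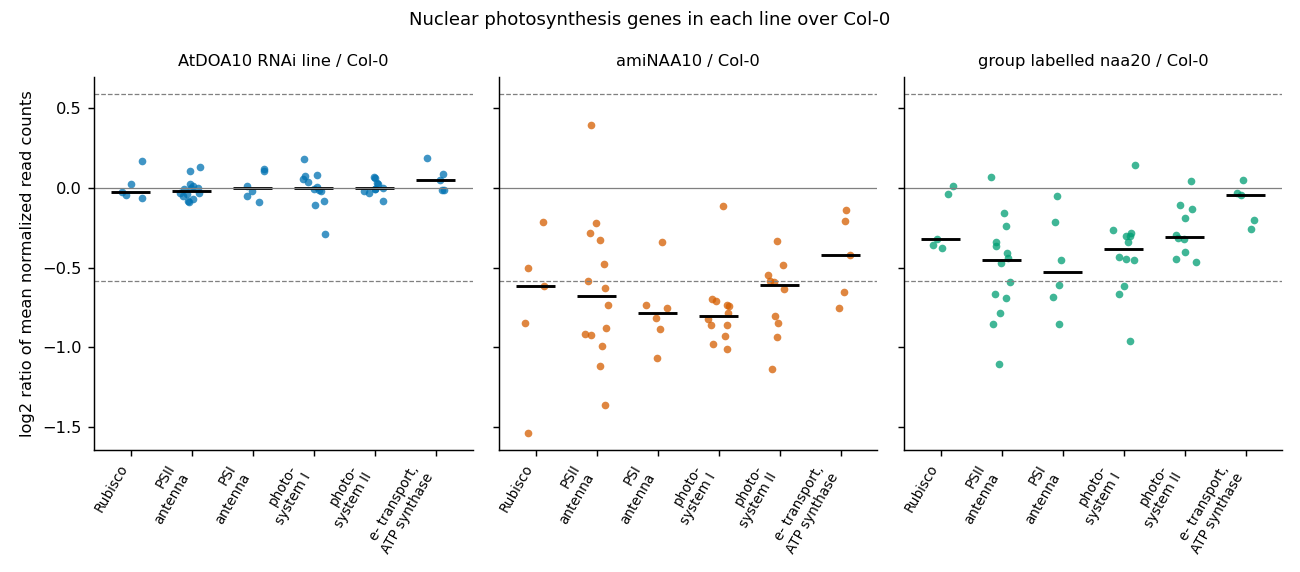
Log2 ratio of mean normalized read counts over Col-0 (vertical axis) for each of the 52 genes, by gene group, in the AtDOA10 RNAi line, amiNAA10 and the group labelled naa20. Points are genes, black bars the median of a group, and dashed lines 1.5-fold; the RNAi points lie between -0.29 and 0.19, whereas 51 of 52 points lie below 0 in amiNAA10 and 47 in the group labelled naa20.

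In amiNAA10 the photosynthesis genes were lower than in Col-0 almost throughout. The log2 ratio was below 0 for 51 of 52 genes, with LHCB1.4 as the exception, and its median was -0.74. Lower past 1.5-fold were 37 genes, against 9.16% of all 20143 genes, and higher past 1.5-fold were 0, against 5.9%. Without centring, 21 genes were lower and 1 was higher past 1.5-fold. The shares of all genes given here are those with centring and are no background for these counts. Other abundant mRNAs were lower to a smaller extent: among 166 other genes with an average of at least 10000, 18 were lower past 1.5-fold and the median was -0.15. The mean in amiNAA10, scaled by the centring, lay below the lowest Col-0 library for 32 of the 34 genes with recovered Col-0 libraries, within their range for PSAE2 and above it for LHCB1.4, where 34.2% of all genes lay below and 36.4% above. Of the 187 genes with a Col-0 mean of at least 10000 and recovered libraries, these photosynthesis genes included, 67.9% lay below.

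The group labelled naa20 showed a smaller difference in the same comparison. Below 0 were 47 of 52 genes with a median of -0.34, and 12 were lower past 1.5-fold against 7.88% of all 20100 genes. None was higher past 1.5-fold, against 5.21% of all genes. Without centring the count of lower genes was 7, for which no share of all genes is given. Ratios near 0 depended on the scaling: those of RBCS1A, LHCA6, PETE1 and ATPC1 were above 0 without centring, and those of PSBS, RCA and PETC were below 0 when centred on genes with an average of at least 1000. Of the 34 genes with Col-0 libraries, 26 had a scaled mean below the lowest library and 1 (PSAE2) above the highest, where 32.6% and 34.4% of all genes did, and 46.5% of the 187 abundant genes lay below. Among 172 other genes with an average of at least 10000, 4 were lower past 1.5-fold and the median was 0.033. Both acetyltransferase lines were set against the same Col-0 libraries, so these counts share their control.

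The direct comparison of the acetyltransferase lines does not use Col-0. The log2 ratio of amiNAA10 over the group labelled naa20 was below 0 for 48 of 52 genes, with a median of -0.30 and a range from -1.15 to 0.74. Past 1.5-fold were 6 lower genes (RBCS2B, PSBS, PSBP1, PSAL, PSAG and RCA), against 8.58% of all 20162 genes, and 1 higher gene (LHCB1.4), against 9.82%. The share of lower genes, 11.5%, was near that background. The count was 2 without centring and 2 with the sums of all means set equal, settings for which no share of all genes is given. Among 167 other genes with an average of at least 10000 the median was -0.17 and 27 were lower past 1.5-fold. PSAF and LHCB4.1, close to 0 here, were above 0 under each other scaling. No library values of these genes were recovered in either line except for LHCB4.3, so the spread between libraries is unknown for the other 51.

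As a share of all normalized reads, the 52 genes took 15.3% in Col-0, 15.1% in the RNAi line, 10.4% in amiNAA10 and 12.3% in the group labelled naa20. The photosystem II antenna took the largest part, with 5.60%, 5.59%, 4.01% and 4.296% in the same order. The photosystem I antenna had 1.58%, 1.53%, 0.921% and 1.00%, photosystem I 1.69%, 1.64%, 1.03% and 1.27%, and photosystem II 2.02%, 2.00%, 1.35% and 1.71%. Rubisco genes took 3.81%, 3.73%, 2.61% and 3.52%. A share within a line needs no scaling between tables. By this measure Rubisco was nearer to Col-0 in the group labelled naa20 than either antenna was. All 6 groups had a smaller share than in Col-0 in every other line, by little in the RNAi line. The smallest shares were those of amiNAA10.

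**Figure D2:**
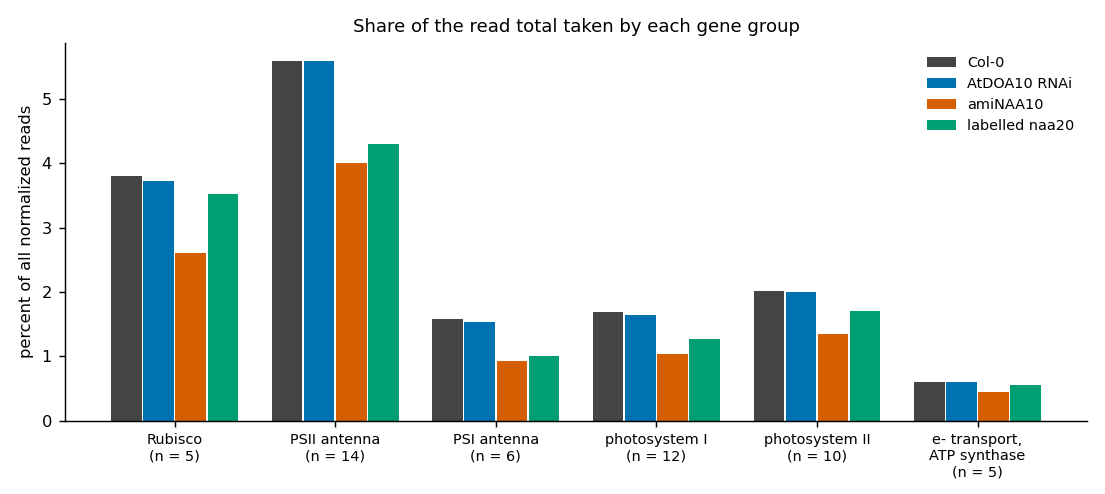
Percent of all normalized reads of a line (vertical axis) taken by each gene group in Col-0, the AtDOA10 RNAi line, amiNAA10 and the group labelled naa20; bars are sums of the authors' means and carry no error. The bars of Col-0 and the RNAi line are nearly level in every group, and the amiNAA10 bar is the lowest of the 4 in each group, from 0.444% for electron transport and ATP synthase to 4.01% for the photosystem II antenna.

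In amiNAA10 the Rubisco genes ranged from -1.53 to -0.22 on the log2 scale, wider than the medians of the 6 groups, and in the group labelled naa20 from -0.38 to 0.01. RBCS1A (AT1G67090), the small subunit gene with the most reads, had means of 240591 in Col-0, 244254 in the RNAi line, 195550 in amiNAA10 and 250468 in the group labelled naa20, with log2 ratios over Col-0 of 0.02, -0.51 and -0.04. RBCS1B (AT5G38430) had 44144, 49537, 43869 and 37864, with ratios of 0.17, -0.22 and -0.32. RBCS2B (AT5G38420) had 80965, 79299, 32279 and 66728, with ratios of -0.03, -1.53 and -0.38. The amiNAA10 value of RBCS2B, 2.89-fold below Col-0, was the lowest ratio among the 52 genes in any comparison. RBCS3B (AT5G38410) had 137946, 131917, 88611 and 114976, with ratios of -0.06, -0.85 and -0.36. RCA (AT2G39730), whose product removes inhibitory sugar phosphates from Rubisco, had 271139, 262836, 203797 and 292426, with ratios of -0.04, -0.62 and 0.01. The direct log2 ratio of amiNAA10 over the group labelled naa20 was -1.15 for RBCS2B, -0.62 for RCA, -0.48 for RBCS3B, -0.46 for RBCS1A and 0.11 for RBCS1B. Library values were recovered only for RBCS1B in Col-0 (45777, 38943 and 47713), and neither the scaled amiNAA10 mean nor that of the group labelled naa20 reached the lowest of them.

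The small subunit genes on chromosome 5 are neighbours on the minus strand: RBCS3B at chr5:15376988-15378642, RBCS2B at chr5:15380907-15382071 and RBCS1B at chr5:15383167-15385320 in the TAIR10.1 annotation of RefSeq, while RBCS1A lies apart at chr1:25048158-25049667. Of the 546 coding bases of RBCS1B and RBCS2B, 97.3% are identical and 15 positions differ. Reads from identical stretches can be assigned to either gene or discarded, so the split between these paralogs is uncertain, and the authors' treatment of such reads is not given in the sources used here. The first 30 coding bases are shown because no stretch of 30 holds more differences between these 2 genes, with the 3 positions that differ in capitals:
RBCS1B: atggcttcctctatgCtctcctcTGccgct
RBCS2B: atggcttcctctatgTtctcctcCAccgct
Summed over the 4 genes, the small subunit count had log2 ratios of 0.0039 in the RNAi line, -0.69 in amiNAA10 and -0.20 in the group labelled naa20.

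The make-up of the small subunit count also differed between the lines. RBCS2B contributed 16.1% of it in Col-0, 15.7% in the RNAi line, 8.96% in amiNAA10 and 14.2% in the group labelled naa20. RBCS1A contributed 47.8%, 48.4%, 54.3% and 53.3%, and RBCS1B 8.76%, 9.81%, 12.2% and 8.06%. In amiNAA10, RBCS1B thus gave more reads than RBCS2B, the reverse of the order in each other line.

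**Figure D3:**
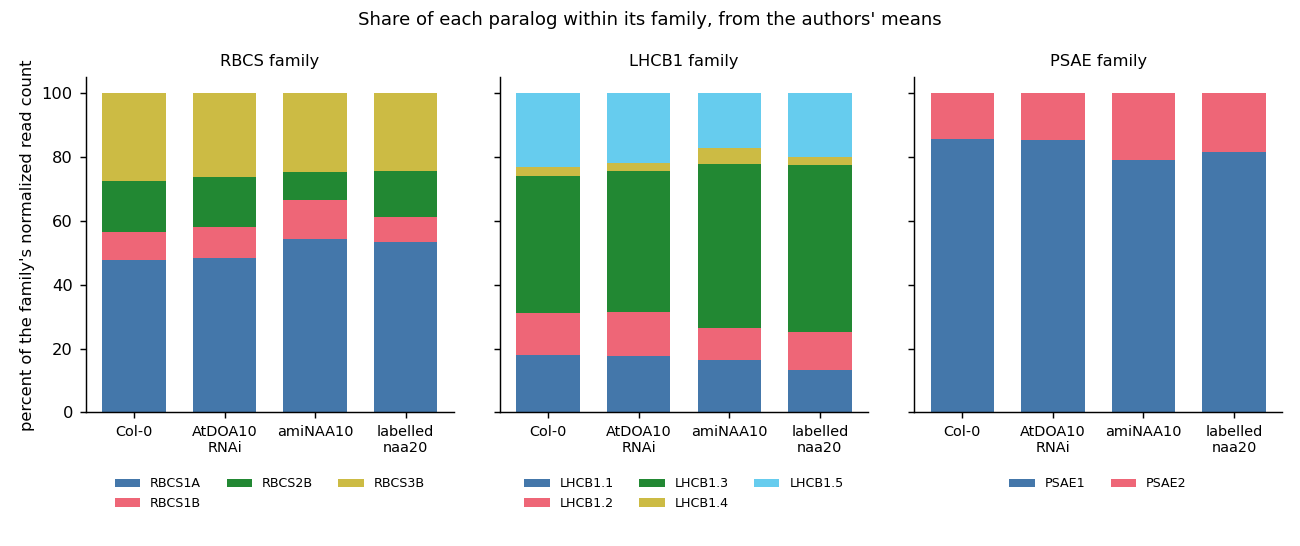
Percent of a family's normalized reads (vertical axis) given by each paralog in the 4 lines, for the RBCS, LHCB1 and PSAE families, from the authors' means and with no error bars. RBCS2B takes 16.1% in Col-0 and 8.96% in amiNAA10, LHCB1.4 takes 2.80% and 5.14%, and PSAE2 takes 14.2% and 20.9%.

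Among the antenna genes of photosystem II, the LHCB1 and LHCB2 families encode the major trimeric light-harvesting complex together with LHCB3, and LHCB4, LHCB5 and LHCB6 encode the minor monomeric proteins between trimers and core. The group had a median log2 ratio of -0.68 in amiNAA10 and -0.46 in the group labelled naa20. Lower past 1.5-fold were 9 and 6 of 14 genes, against 9.16% and 7.88% of all genes. The LHCB2 genes lay lowest as a family. LHCB2.1 (AT2G05100) had 78313 in Col-0, 78294 in the RNAi line, 41631 in amiNAA10 and 51883 in the group labelled naa20, with ratios of -1.12 and -0.69 in the acetyltransferase lines. LHCB2.2 (AT2G05070) had 69412, 69992, 40377 and 41114, with ratios of -0.99 and -0.85. LHCB2.3 (AT3G27690) had 20206, 19098, 9076 and 10055, with ratios of -1.36 and -1.11, and its Col-0 libraries held 18747, 17985 and 23885. Both scaled means of LHCB2.3 were below those libraries, and its direct ratio between the acetyltransferase lines was -0.25. The summed LHCB2 count had ratios of -1.09 and -0.80.

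LHCB1 was less uniform. Its gene with the most reads, LHCB1.3 (AT1G29930), had 251980, 270842, 249322 and 282260 in Col-0, the RNAi line, amiNAA10 and the group labelled naa20, with ratios of -0.22 and 0.06 in the acetyltransferase lines. LHCB1.1 had ratios of -0.63 and -0.67, LHCB1.2 of -0.88 and -0.36, and LHCB1.5 of -0.92 and -0.44. LHCB1.4 (AT2G34430) stood apart, with 16465, 15660, 24951 and 13905 and ratios of -0.07, 0.39 and -0.34. Its Col-0 libraries held 15132, 13815 and 20449 and its RNAi libraries 15215, 17277 and 14487, and the scaled amiNAA10 mean of 21618 was above all 6. The Col-0 libraries of LHCB1.4 were also the most spread of the 34 genes, with a coefficient of variation of 21.3%. The direct ratio of amiNAA10 over the group labelled naa20 was 0.74 for LHCB1.4 and -0.51 for LHCB1.2, the highest and the lowest of the antenna genes of photosystem II. Within the LHCB1 count, LHCB1.4 made up 2.80% in Col-0, 2.56% in the RNAi line, 5.14% in amiNAA10 and 2.58% in the group labelled naa20. Coding sequences of LHCB1.1, LHCB1.2 and LHCB1.3 are 95.6% to 96.4% identical over 804 bases, whereas LHCB1.4 is 92.6% identical to LHCB1.5, so reads of the first 3 are the hardest to place.

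LHCB3 (ratios of -0.92 and -0.78 in amiNAA10 and the group labelled naa20) followed LHCB2, and LHCB5 (-0.73 and -0.59) and LHCB6 (-0.59 and -0.41) were nearer the median. In the LHCB4 family the ratios were -0.28 and -0.24 for LHCB4.1 and -0.33 and -0.47 for LHCB4.2. LHCB4.3 (AT2G40100), which had the lowest level per kilobase of exon of all 52 genes (699 normalized reads per kilobase in Col-0, against 204862 for LHCB1.3), was the 1 gene with recovered libraries in every line. It had 986, 1071 and 713 in Col-0, 782, 852 and 1036 in the RNAi line, 679, 911 and 708 in amiNAA10, and 965, 699 and 992 in the group labelled naa20. The values of all 4 lines overlapped. In limma on the 14997 genes recovered in every line, which were of low level and were centred in the same way, LHCB4.3 had an estimate of -0.47 with an SE of 0.15 in amiNAA10 over Col-0 (adjusted p = 0.019), of -0.16 with an SE of 0.15 in the group labelled naa20 over Col-0 (adjusted p = 0.47), and of -0.30 with an SE of 0.15 between the acetyltransferase lines (adjusted p = 0.11). The amiNAA10 estimate over Col-0 includes the centring, which moved ratios by 0.21, and was not tested without it. Over all its genes, this limma fit called 18.7% lower and 17.2% higher in amiNAA10 over Col-0. The shares were 15.1% and 12.2% in the group labelled naa20 over Col-0, and 18% and 20.4% between the acetyltransferase lines.

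The antenna of photosystem I consists of LHCA1 to LHCA4, with LHCA5 and LHCA6 as minor proteins that take part in joining photosystem I to the NDH complex. LHCA4 (AT3G47470) had the most reads, 109685 in Col-0, 108161 in the RNAi line, 68435 in amiNAA10 and 73003 in the group labelled naa20 (ratios of -0.02, -0.89 and -0.69). LHCA1 (AT3G54890), its partner in the complex, had 96884, 97570, 53335 and 57419 (ratios of 0.01, -1.07 and -0.85), the lowest ratios of this group in both acetyltransferase lines. LHCA2 (-0.76 and -0.45) and LHCA3 (-0.81 and -0.61) lay between. LHCA6 was nearest to Col-0, with 2681, 2878, 2442 and 2767 and ratios of -0.34 and -0.05 in the acetyltransferase lines. LHCA5 had 2524, 2737, 1747 and 2334 and the lowest direct ratio of amiNAA10 over the group labelled naa20 in this group (-0.52). The 4 major antenna genes were thus lower than in Col-0 in both lines, and the 2 minor ones had the ratios nearest 0 in the group labelled naa20.

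Photosystem I subunits had the lowest median of the 6 groups in amiNAA10, -0.81, with 11 of 12 genes lower past 1.5-fold (9.16% of all genes). In the group labelled naa20 their median was -0.39, with 3 of 12 lower (7.88% of all genes). PSAL (AT4G12800), a subunit at the interface where the mobile light-harvesting complex docks, had 51204 in Col-0, 51237 in the RNAi line, 29347 in amiNAA10 and 43282 in the group labelled naa20 (ratios of 0.00, -1.01 and -0.34). PSAG (AT1G55670) had 29554, 29355, 17893 and 25944 (ratios of -0.01, -0.93 and -0.29), and these were the 2 subunit genes that lay past 1.5-fold between the acetyltransferase lines. PSAF was different, with 35268, 28839, 20644 and 19391 (ratios of -0.29, -0.98 and -0.96) and a direct ratio of -0.01. It was thus the lowest of the group in the RNAi line and in the group labelled naa20, but not in amiNAA10. PSAN, on the lumenal side, had ratios of -0.86 and -0.61 in amiNAA10 and the group labelled naa20, and the small peripheral subunits PSAK and PSAO had -0.83 and -0.45, and -0.71 and -0.27. In amiNAA10 all 3 were nearer to Col-0 than PSAL, PSAF and PSAG.

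For the paralog pairs of photosystem I, libraries were recovered for both genes in Col-0 and the RNAi line, so the share of each gene has a measured spread. PSAE2 (AT2G20260), 1 of 2 genes for the stromal subunit PSAE that helps ferredoxin bind, gave 14.2% of the PSAE count in Col-0 (libraries from 14.03% to 14.44%), 14.5% in the RNAi line (14.4% to 14.6%), 20.9% in amiNAA10 and 18.4% in the group labelled naa20. Both acetyltransferase values lay above all 6 libraries. PSAE2 itself had 5949, 6249, 6340 and 7030, with ratios of 0.07, -0.12 and 0.14, whereas PSAE1 had 35861, 36717, 24001 and 31146, with ratios of 0.03, -0.79 and -0.30. The ratio of PSAE2 in amiNAA10 was above 0 without centring and with the sums of all means set equal, so its direction is not settled, but its share does not depend on scaling. PSAD2, for another stromal subunit, gave 29.4% of the PSAD count in Col-0 (29.36% to 29.41%), 28.0% in the RNAi line (27.7% to 28.3%), 27.7% in amiNAA10 and 26.1% in the group labelled naa20. PSAH1 gave 24.4%, 25.6%, 24.8% and 26.3% of the PSAH count, with Col-0 libraries from 23.4% to 25.2% and RNAi libraries from 25.3% to 26.2%. Here the amiNAA10 value lay within the Col-0 range.

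**Figure D4:**
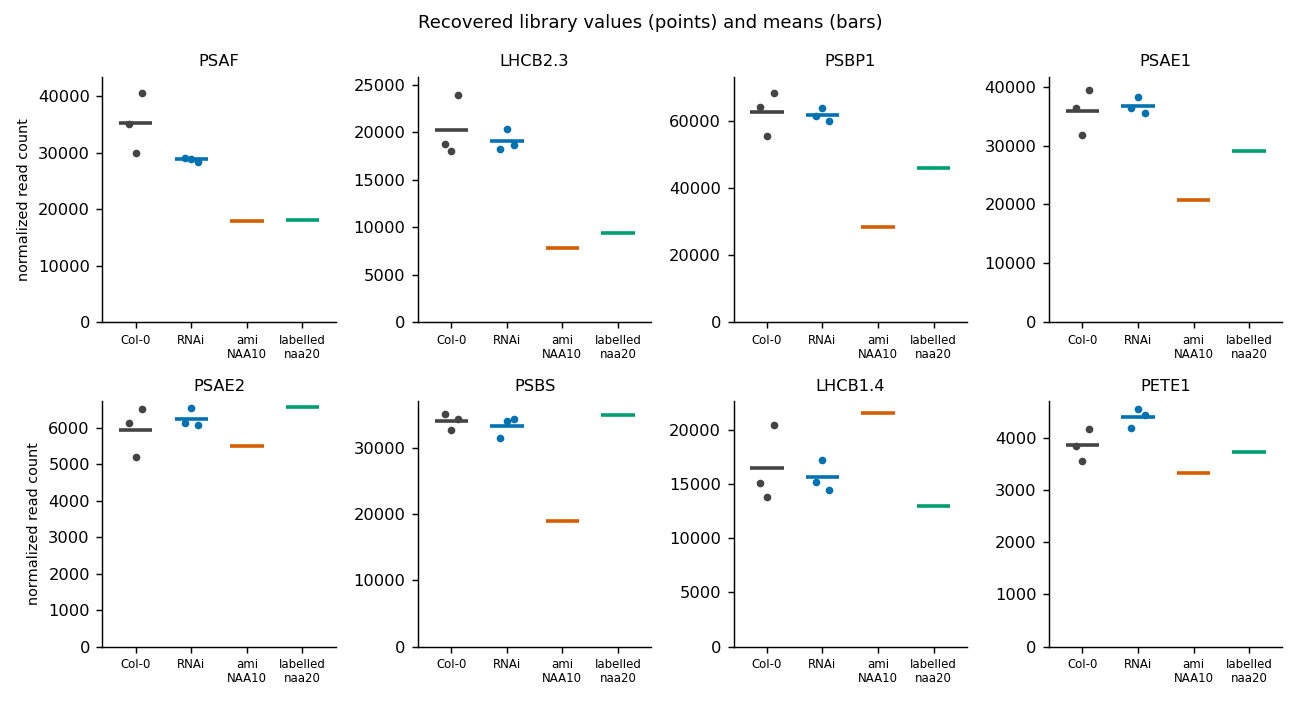
Normalized read counts (vertical axis, starting at 0) of 8 genes in the 4 lines: points are the recovered libraries of Col-0 and the RNAi line, and bars are the authors' means, with those of amiNAA10 and the group labelled naa20 scaled by the centring. LHCB2.3 shows both acetyltransferase means below all 6 libraries, PSBS only that of amiNAA10, and LHCB1.4 has its amiNAA10 mean of 21618 above all 6 libraries.

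Photosystem II subunits had a median of -0.61 in amiNAA10, with 7 of 10 genes lower past 1.5-fold (9.16% of all genes). In the group labelled naa20 their median was -0.31, with 0 of 10 lower (7.88% of all genes). PSBR (AT1G79040), which had the most reads, had 74419 in Col-0, 75883 in the RNAi line, 57106 in amiNAA10 and 73999 in the group labelled naa20 (ratios of 0.03, -0.59 and -0.11). PSBP1 (AT1G06680), for a protein of the oxygen-evolving complex, had 62673, 61762, 32923 and 49213 (ratios of -0.02, -1.14 and -0.45). Its Col-0 libraries held 64279, 55411 and 68329, all above both scaled means. PSBS (AT1G44575), the sensor of lumen acidification in energy-dependent quenching, had 34046, 33281, 21880 and 37467 (ratios of -0.03, -0.84 and 0.04). Its Col-0 libraries held 35065, 32753 and 34320, the smallest spread of the 34 genes. The scaled amiNAA10 mean of PSBS lay below all of them and that of the group labelled naa20 within their range, and the direct ratio of -0.88 was the lowest in this group.

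The other oxygen-evolving genes were closer to Col-0 than PSBP1. PSBO1 and PSBO2, which stabilise the manganese cluster, had ratios of -0.80 and -0.63 in amiNAA10 and -0.32 each in the group labelled naa20. PSBQ1 (-0.33 and -0.19) and PSBQ2 (-0.54 and -0.14) were the nearest to Col-0. PSBO2 gave 28.3% of the PSBO count in Col-0 (libraries from 28.1% to 28.6%), 29.3% in the RNAi line, 30.8% in amiNAA10 and 28.4% in the group labelled naa20, and only the last lay within the Col-0 range. PSBQ1 gave 55.5% of the PSBQ count in Col-0 (54.5% to 56.4%), 55.9%, 59.1% and 54.6%. PSBY, a small membrane subunit, had the lowest ratio of the group labelled naa20 in this group, at -0.46, and had -0.93 in amiNAA10.

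Electron transport and ATP synthase genes differed least, with medians of -0.42 in amiNAA10 and -0.05 in the group labelled naa20. PETC (AT4G03280), the Rieske iron-sulphur protein of cytochrome b6f, had 19704, 19471, 20596 and 21793 in Col-0, the RNAi line, amiNAA10 and the group labelled naa20 (ratios of -0.02, -0.14 and 0.05), and its amiNAA10 ratio was above 0 without centring. PETE2 (AT1G20340), the plastocyanin gene with most reads, had 59839, 59216, 41058 and 55763 (ratios of -0.02, -0.75 and -0.20). PETE1 had 3856, 4393, 3844 and 3999 (ratios of 0.19, -0.21 and -0.05). PETE1 gave 6.05% of the plastocyanin count in Col-0 (libraries from 5.90% to 6.22%), 6.91% in the RNAi line (6.58% to 7.27%), 8.56% in amiNAA10 and 6.69% in the group labelled naa20. The RNAi libraries all lay above those of Col-0 in this share, and the amiNAA10 share lay above all 6. Shares of PSAH1 (RNAi above Col-0) and PSAD2 (RNAi below Col-0) did not overlap either, while those of the PSAE and PSBQ pairs did. How often such shares fail to overlap in other gene pairs was not measured. ATPC1 and ATPD, the gamma and delta subunits of the ATP synthase, had ratios of -0.42 and -0.66 in amiNAA10 and -0.04 and -0.26 in the group labelled naa20.

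Compared with one another, the groups had their medians in a different order in each line. In amiNAA10 the order from the lowest was photosystem I (-0.81), photosystem I antenna (-0.78), photosystem II antenna (-0.68), Rubisco (-0.62), photosystem II (-0.61), and electron transport and ATP synthase (-0.42). In the group labelled naa20 it was photosystem I antenna (-0.53), photosystem II antenna (-0.46), photosystem I (-0.39), Rubisco (-0.32), photosystem II (-0.31), and electron transport and ATP synthase (-0.05). The direct ratio of the lines had its lowest medians in Rubisco (-0.48) and photosystem II (-0.43) and its highest in the antennae (-0.24 and -0.15). The ranges of all 6 groups overlapped in each of these comparisons, so the order of the medians is a description.

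The 250 bases before the annotated start of each gene were searched on both strands for short motifs, in the TAIR10.1 sequence of RefSeq. The G-box CACGTG was present before 10 of the 52 genes (19.2%) and before 6.49% of 27443 protein-coding genes, the I-box core GATAAG before 13 (25.0%) against 12.3%, and the TATA sequence TATAAA before 24 (46.2%) against 47.3%. CCAATC, which contains the CCAAT box, was present before 15 genes (28.8%) against 10.2%, among them 7 of 14 photosystem II antenna genes and 3 of 6 photosystem I antenna genes but 0 of 12 photosystem I genes. All LHCB2 genes and LHCA1, the antenna genes with the lowest ratios in amiNAA10, had a CCAATC, and so did LHCB1.3 and LHCB4.1, which were near Col-0. The windows of 30 bases around it are shown because LHCB2.1 and LHCB2.2 share much of theirs, with the motif in capitals, 5′ to 3′ on the strand of the gene:
LHCB2.1 (chr2:1824522-1824551, minus strand): ccacagccactaCCAATCttctattaggac
LHCB2.2 (chr2:1800508-1800537, minus strand): ccacaaccattaCCAATCtcctcataggac
LHCB2.3 (chr3:10255840-10255869, plus strand): atctaaaaccaaCCAATCtacactcgctga
LHCA1 (chr3:20341280-20341309, minus strand): ccggattcatgaCCAATCgcagatttaccg
Of the RBCS genes only RBCS2B had a G-box in this window, and it also had I-box cores, as the next pair shows, with the motif named in capitals:
RBCS2B, G-box (chr5:15382177-15382206, minus strand): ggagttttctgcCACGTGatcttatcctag
RBCS2B, I-box core (chr5:15382148-15382177, minus strand): gtggtccaaatcGATAAGggtgtcaacacc
All of these windows lie upstream of the annotated gene. The other RBCS genes lacking these letters in the window says nothing about elements farther upstream, and no binding was measured. Genes with a G-box also included LHCB2.3, PSAE2 and LHCB4.1, with ratios of -1.36, -0.12 and -0.28 in amiNAA10.

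Other genes of photosynthesis were read from lists chosen with earlier results of these data known. Of 10 regulators of photosynthesis genes, 2 were lower past 1.5-fold in amiNAA10, both of them GLK genes, and 1 was higher. Among all genes 9.16% were lower and 5.9% higher. The list had a median of 0.10 in amiNAA10, with 5 genes below 0 and 5 above. GLK1 had 3927 in Col-0 (libraries 3785, 3669 and 4328), 3715 in the RNAi line (3600, 3758 and 3787), 1135 in amiNAA10 and 3499 in the group labelled naa20. Its log2 ratios were -0.08, -1.996 and -0.27, and the direct ratio between the acetyltransferase lines was -1.72. GLK2 had 3598, 3988, 2621 and 2884, with ratios of 0.15, -0.66 and -0.42. GNL, a GATA factor that promotes greening, was higher in both, at 579 and 545 after scaling against 364 in Col-0 (log2 ratios of 0.67 and 0.58). Its limma estimates were 0.67 (SE 0.10, adjusted p = 6.1e-05) and 0.59 (SE 0.10, adjusted p = 0.00026). That fit called 17.2% and 12.2% of all its genes higher. HY5, also on the list, was higher in both within 1.5-fold, with limma estimates of 0.45 (adjusted p = 0.0035) and 0.40 (adjusted p = 0.010). In the group labelled naa20, 0 of the 10 were past 1.5-fold, and the median was -0.083. Among all genes 7.88% were lower and 5.21% higher there.

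The counts that follow are to be read against all genes. Past 1.5-fold, 9.16% of these were lower and 5.9% higher in amiNAA10, and 7.88% and 5.21% in the group labelled naa20. Calvin-Benson cycle enzymes outside Rubisco differed less than the 52 genes. Of 15, 2 were lower past 1.5-fold in amiNAA10 (GAPA2, a subunit of the plastid glyceraldehyde-3-phosphate dehydrogenase, at -0.81, and the aldolase gene FBA1 at -0.63) with a median of -0.26, and 0 in the group labelled naa20, with a median of 0.024. Of 13 other thylakoid electron transport genes, 2 were lower in amiNAA10 (PSBTN and FD1, median -0.43), while in the group labelled naa20 FD1, a leaf ferredoxin gene, was lower (-0.61) and FNR2, for ferredoxin-NADP reductase, was higher (0.79), with a median of -0.068. Of 10 genes for antenna insertion and Rubisco assembly, 0 were lower in either line. Their medians were 0.23 in amiNAA10 and -0.0035 in the group labelled naa20. RBCX1, for a Rubisco assembly chaperone, was higher in both, at 68.3 and 63.9 normalized reads after scaling against 18.4 in Col-0. Its adjusted p values in limma were 0.0004 and 0.00076, where 17.2% and 12.2% of all genes in the fit were called higher. None of 5 light-stress LHC-like genes was past 1.5-fold in either line, and in the RNAi line 0 genes of these 5 lists were.

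Markers of other tissue gave mixed counts, to be read against the 9.16% of all genes that were lower past 1.5-fold in amiNAA10 and the 7.88% in the group labelled naa20. Of 13 shoot markers outside photosynthesis, 4 were lower past 1.5-fold in amiNAA10 (KAT1, HT1, PDF1 and AS2) and 2 in the group labelled naa20 (PDF1 and HT1), with medians of -0.32 and -0.32, and their summed level was 10016 in Col-0, 9361 in the RNAi line, and 8345 and 8197 in amiNAA10 and the group labelled naa20 after scaling. KAT1 and HT1 act in guard cells and PDF1 in the epidermis. The guard cell genes GC1 and MYB60 and the epidermal gene CER1 were within 1.5-fold in both acetyltransferase lines. Their ratios in amiNAA10 were 0.09, -0.26 and -0.32. Of the 13 shoot markers, 10 were below 0 and 3 above 0 in either of these lines. In the RNAi line 9 were below 0, and 1, CER1, was lower past 1.5-fold (-1.08), against 2.17% of all genes. Limma there gave adjusted p values of 0.020 for CER1 and 0.040 for KAT1 (estimate -0.49), with 1.2% of all genes called lower. Of 20 root markers, 18 passed the filter in amiNAA10 over Col-0 and 3 of them were lower, with a median of -0.18. The root markers had a median of -0.19 in the RNAi line too, with 14 of 18 below 0 and 0 past 1.5-fold, where the photosynthesis genes had a median of -0.0068. In the group labelled naa20, 19 passed, 6 were lower and 2 (NRT2.1 and HKT1) higher, with a median of -0.34. Without PYK10, which held most of the sum, the root markers summed to 11933 in Col-0, 11151 in the RNAi line, 9664 in amiNAA10 and 10268 in the group labelled naa20, and ESB1 was under 10 in every line. Both lists were thus detected in every line. The part of tissue make-up in the lower photosynthesis counts was not tested.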

How the data were processed

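Poly-A mRNA was sequenced from 3 libraries per line. According to the submitters' processing notes, DESeq 1.18.0, HTSeq 0.6.1, TopHat2 2.0.12, Bowtie2 2.2.3 and TAIR10 were used, whereas the study's methods name HISAT2, RPKM, DESeq2 and edgeR. Which of them made the tables, and how reads with several matches were treated, is not given in the sources used here. The deposited signal values are the authors' means over the 3 libraries of a line of read counts divided by size factors, in 3 tables (1 per line against wild type). The tables also hold the authors' fold changes, p-values, q-values and calls, which were not used. The 2 wild-type columns of the amiNAA10 and naa20 tables belong to another series and were not used.

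Log2 ratios, the pseudocount of 1, the filter (average of at least 10) and the centring are described with the results. Whole reads of the single libraries were recovered as the only combination that gives a mean to all its printed digits (15 significant digits in the RNAi table, 10 in the others). This was possible for 99.7% of genes with a mean of at least 10 in Col-0, 99.8% in the RNAi line, 76.0% in amiNAA10 and 77.9% in naa20 (in the last 2 only for means below 1000). The recovery and the limma fit were tested on simulated data. Recovered log2 values were fitted in limma 3.58.1 (R 4.3.3) with Benjamini-Hochberg adjustment; this was added after the means had been seen, and the p-values measure the spread between pools of seedlings. Python 3.11.15, pandas 2.3.3, numpy 2.4.6 and Biopython 1.88 were used.

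Named were all Rubisco genes, in every other group the gene with the highest Col-0 mean and those with the largest rise and fall in each comparison, the paralog families, the targeted genes, and up to 3 genes per list with the largest ratios past 1.5-fold in amiNAA10 or naa20; others were named after their values were seen. Genes, lists and tests were chosen with earlier results of these data known. Settings tried were the pseudocount, the filter, the threshold, the scaling, summed paralogs and leaving out each recovered library. Motifs and coding identity come from RefSeq TAIR10.1, and all 52 genes matched it; identity is over aligned bases of the longest coding sequence.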

Additional observations from a re-analysis of the deposited data

How the results depend on the processing

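The median log2 ratio of the 52 genes kept its sign under every setting run in amiNAA10 over Col-0, naa20 over Col-0 and amiNAA10 over naa20. In the RNAi line that of the 31 genes with libraries ranged from -0.070 to 0.061 with 1 library left out. With pseudocounts of 0.1 and 10, no filter or a filter of 50 every count stayed within 1.5 times its value. The threshold moved the counts most. Shares of all genes were taken only at 1.5-fold with the scaling described with the results. The counts that follow therefore have no background of all genes beside them. At 2-fold, 6 genes were lower in amiNAA10 over Col-0, 1 in naa20 over Col-0 and 1 in amiNAA10 over naa20, where 0 were higher. At a threshold of 0.32 on the log2 scale, 1 gene was higher in amiNAA10 over Col-0, 27 were lower in naa20 over Col-0, and 23 were lower in amiNAA10 over naa20. Without centring, 21 genes were lower and 1 higher in amiNAA10 over Col-0 with a median of -0.53, 7 were lower in naa20 over Col-0, and 2 were lower in amiNAA10 over naa20, where setting the sums of all means equal also left 2. With paralogs of a family summed, 0 of 35 units were higher in amiNAA10 over naa20. Of the 34 genes with Col-0 libraries, 3 to 5 were lower past 1.5-fold in naa20 when 1 Col-0 library was left out, the lowest without library C, and 21 to 23 in amiNAA10. The limma count of called genes in the RNAi line was 0 to 1, the 1 being PSAF without Col-0 library B. Centring on genes with an average of at least 1000, chosen after seeing the data, left every count within 1.5 times. No paired analysis was possible because the deposited columns are means that carry no replicate numbers, and the recovered libraries are unnumbered. The libraries of amiNAA10 and naa20 could not be left out in turn for genes other than LHCB4.3.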
